A study of Mus musculus with 6 samples.

Results

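The 10 genes described here encode secreted proteins that defend epithelia or rise in blood during the acute phase of inflammation: Lcn2, Lrg1, Saa1, Saa2, Saa3, Defb1, Wfdc18, Slpi, Pglyrp1 and Retnlb. They were picked by name out of 55414 genes in the deposited table and matched by Ensembl identifier. The choice was made with earlier results of these data known, so their difference between TNF and PBS is given as a description. RNA had been sequenced from Paneth cells (PCs) sorted from the small intestine of C57BL/6J mice 15 h after an injection. The control group of 3 mice had received phosphate-buffered saline (PBS), and the other group of 3 mice had been given tumour necrosis factor (TNF). Every mouse gave 1 library, and all 6 mice, controls included, lacked Ifnar1, the gene of 1 chain of the receptor for type I interferons.

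PCs sit at the base of small intestinal crypts and release antimicrobial proteins from granules into the crypt lumen. Some of these products are made at all times, whereas others are induced by cytokines that act through NF-kappaB, STAT3 or C/EBP factors, the last 2 being well known for the acute-phase response of the liver. Lipocalin 2 (Lcn2) binds the siderophores with which bacteria take up iron, serum amyloid A proteins (Saa1, Saa2, Saa3) carry lipids and retinol, and beta-defensins (Defb1) and whey acidic protein (WAP) domain proteins (Wfdc18, Slpi) are small cationic or protease-inhibiting proteins. Pglyrp1 binds the bacterial cell wall component peptidoglycan, and Retnlb, resistin-like molecule beta, is best known as a goblet cell product.

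Libraries held 12747484 to 17039511 counts and 16483 to 18449 detected genes. Levels are in CPM, counts scaled to the same library size after correction by trimmed mean of M-values (TMM), and 3 counts, the limit taken for a count of 0, equal 0.147 to 0.255 CPM. These limits and the count ratios below cover counting error only. TNF replicate 1 stood apart from the other TNF libraries: over log2 CPM of all tested genes it correlated at 0.884 and 0.883 with TNF replicates 2 and 3, and at 0.937 to 0.945 with the PBS libraries, while TNF replicates 2 and 3 correlated at 0.954. The genes behind such a correlation are not independent of each other. The labels give no reason, and whether this mouse was labelled and injected as stated was not tested. TNF means, SDs and count ratios below include it as labelled, and fitted log2 fold changes are given with and without it. All 9 PC markers examined were detected, and their summed level was 371070 to 457790 CPM in PBS and 280410 to 615760 CPM in TNF libraries.

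The promoters of 4 members are shown because these genes include the 3 with groups that did not overlap (Lcn2, Wfdc18, Defb1) and Lrg1, the gene whose profile was closest to that of Lcn2 among the 9173 genes compared below. Each line gives the 250 bases before the start of the canonical GENCODE transcript, read from the GRCm39 genome from 5' to 3' on the strand of the gene. The windows are chr2:32277810-32278059 on the minus strand for Lcn2, chr17:56429002-56429251 on the minus strand for Lrg1, chr11:83599591-83599840 on the plus strand for Wfdc18 and chr8:22266334-22266583 on the plus strand for Defb1. Capitals mark matches to 4 motifs searched on both strands: kappaB (GGG and CC with any 5 bases between them), STAT (TTCNNNGAA), C/EBP (TTNNGNAA) and the TATA box, TATAAA. The Lcn2 window overlaps an exon of another annotated Lcn2 transcript that starts further upstream.
Lcn2: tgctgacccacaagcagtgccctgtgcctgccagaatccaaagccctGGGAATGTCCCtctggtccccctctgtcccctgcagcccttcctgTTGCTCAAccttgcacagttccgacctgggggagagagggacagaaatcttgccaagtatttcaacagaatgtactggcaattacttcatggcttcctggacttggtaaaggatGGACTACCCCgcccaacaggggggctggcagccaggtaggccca
Lrg1: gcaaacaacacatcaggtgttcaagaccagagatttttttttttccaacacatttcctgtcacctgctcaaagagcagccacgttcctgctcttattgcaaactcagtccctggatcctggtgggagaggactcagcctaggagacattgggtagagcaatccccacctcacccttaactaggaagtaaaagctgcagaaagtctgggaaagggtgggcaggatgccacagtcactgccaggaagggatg
Wfdc18: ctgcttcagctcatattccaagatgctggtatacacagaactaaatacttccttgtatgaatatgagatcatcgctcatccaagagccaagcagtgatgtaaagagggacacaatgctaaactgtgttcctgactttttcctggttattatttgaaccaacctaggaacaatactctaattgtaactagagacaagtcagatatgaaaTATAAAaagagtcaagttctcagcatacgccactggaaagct
Defb1: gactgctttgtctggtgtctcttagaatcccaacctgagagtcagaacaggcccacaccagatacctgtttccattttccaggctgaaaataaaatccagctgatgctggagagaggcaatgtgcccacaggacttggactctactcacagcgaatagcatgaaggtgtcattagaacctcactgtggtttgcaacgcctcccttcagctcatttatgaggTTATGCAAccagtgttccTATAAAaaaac

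The Lcn2 window held kappaB matches 203 and 44 bases before the start, the first of which overlaps a further match on the other strand, at 202 bases, and a C/EBP match at 158 bases. Defb1 had a C/EBP match at 29 bases and a TATA match at 11 bases, and Wfdc18 a TATA match at 42 bases. None of the 4 motifs was found in the Lrg1 window. Over all 10 members, kappaB was found in 3 (Lcn2, Saa2, Pglyrp1), C/EBP in 5 (Lcn2, Saa1, Saa2, Defb1, Slpi), TATA in 2 and STAT in 0. Among 21770 promoters of protein-coding genes of the same length, the shares with a match were 47.8% for kappaB, 36.9% for C/EBP, 11.9% for TATA and 7.7% for STAT. A match is a match of letters, and the absence of one concerns these windows alone.

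In these cells the members with at least 100 counts in all 6 libraries together fell into 3 kinds by level. Pglyrp1 and Retnlb were abundant in every library, Defb1 was low in PBS and higher in each TNF library, and Lcn2, Lrg1, Wfdc18 and Saa3 were at or near 0 in PBS and plainly present in TNF replicates 2 and 3. Saa1, Saa2 and Slpi stayed under 100 counts in all 6 libraries together. The TNF and PBS values did not overlap for 3 of 10 members (Lcn2, Defb1 and Wfdc18), beside 6.53% of all 23434 genes with a count that were higher in TNF without overlap. TNF replicate 1 lay inside the range of the PBS libraries for 7 of 10 members, beside 55.6% of all genes with a count.

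**Figure D1:**
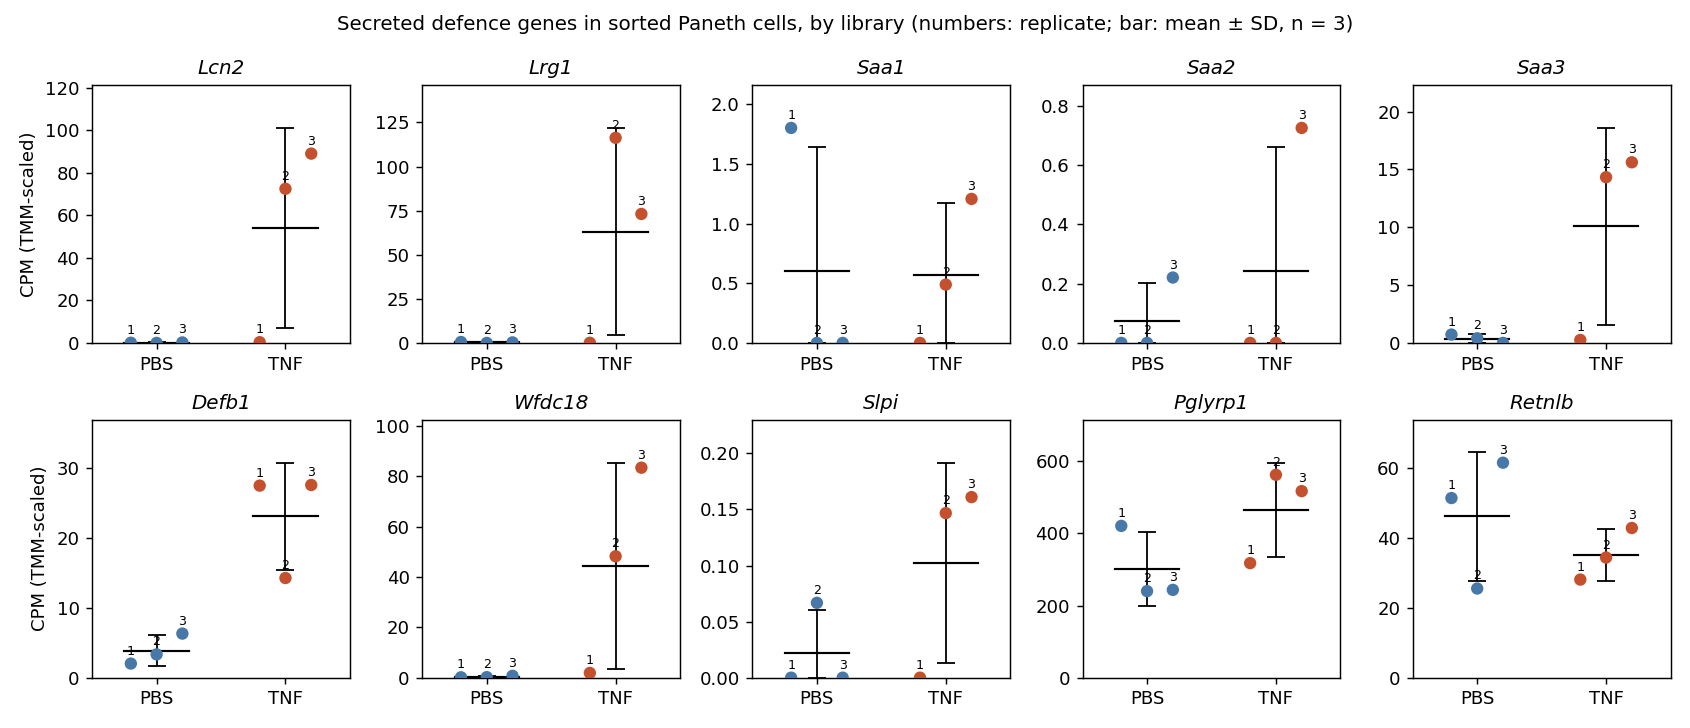
Level of each of the 10 genes in CPM on TMM-scaled library sizes, with a linear axis of its own per panel. Points are single libraries with their replicate number, in blue for PBS and red for TNF; horizontal lines are means and vertical bars SD (n = 3, bars end at 0). TNF replicate 1 sits beside the PBS libraries for Lcn2, Lrg1, Saa3 and Wfdc18, but not for Defb1, where it reached 27.5 CPM.

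The siderophore-binding protein gene Lcn2 (ENSMUSG00000026822, chromosome 2, 32274645 to 32278264, minus strand) had 1, 0 and 3 counts in PBS replicates 1 to 3, equal to 0.0721, 0 and 0.220 CPM. In TNF replicates 1 to 3 it had 4, 1481 and 1105 counts, equal to 0.340, 72.4 and 89.0 CPM. The groups did not overlap, but TNF replicate 1 exceeded the highest PBS library by a single count. Means were 0.0975 ± 0.112 CPM in PBS and 53.9 ± 47.1 CPM in TNF (SD, n = 3). The ratio of summed counts, TNF over PBS and corrected for library size, was 616 with a 95% exact interval of 240 to 2263, which covers counting error alone and not the spread between mice.

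Lrg1 (ENSMUSG00000037095, chromosome 17, 56426283 to 56429001, minus strand), a leucine-rich acute-phase glycoprotein known to modify TGF-beta signalling, had 0.505, 0 and 0.294 CPM in PBS. In TNF replicates 1 to 3 it had 0.0850, 116 and 73.1 CPM, or 1, 2377 and 908 counts. TNF replicate 1 thus lay within the PBS range, and the groups overlapped. Means were 0.266 ± 0.254 CPM in PBS and 63.2 ± 58.7 CPM in TNF (SD, n = 3). A long non-coding gene, Gm56918, lies on the opposite strand within Lrg1 and was not in the table, and whether counting used the strand is not stated.

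The 3 serum amyloid A genes lie together on chromosome 7: Saa3 (ENSMUSG00000040026, 46361422 to 46365576, minus strand), Saa1 (ENSMUSG00000074115, 46389916 to 46392547, minus strand) and Saa2 (ENSMUSG00000057465, 46401214 to 46403737, plus strand). Saa3, the form made mainly outside the liver, had 10, 6 and 0 counts in PBS and 3, 293 and 194 counts in TNF replicates 1 to 3. Its levels were 0.721, 0.400 and 0 CPM in PBS, and 0.255, 14.3 and 15.6 CPM after TNF. Saa3 was thus high in TNF replicates 2 and 3 and within the PBS range in replicate 1.

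The main acute-phase forms of the liver, Saa1 and Saa2, were low or at 0 in every library. Saa1 had 25, 0 and 0 counts in PBS and 0, 10 and 15 counts in TNF, so that its PBS signal came from 1 library, and its means were 0.601 ± 1.04 CPM in PBS and 0.566 ± 0.608 CPM in TNF (SD, n = 3). Saa2 was counted in PBS replicate 3 (3 counts) and TNF replicate 3 (9 counts) and nowhere else, for a ratio of 2.85 with a 95% interval of 0.712 to 16.4. A difference in Saa2 was not detectable at this depth. Saa4, and the pseudogene Saa-ps in the same cluster, had 0 counts in all 6 libraries.

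The coding sequences of Saa1 and Saa2 were 95.1% identical, and 51 of the 50-base words of their transcripts were shared, 7.2% of those of Saa1 and 8.46% of those of Saa2. Saa3 was 75.7% identical to Saa1 and 74.7% to Saa2, and shared 9 such words with Saa1 and 0 with Saa2. Because the treatment of reads with several matches is unknown here, the split between Saa1 and Saa2 is uncertain. With the 3 genes summed into 1 feature, the edgeR log2 fold change was 3.37 (SE 1.21) and did not pass the 5% threshold. It was 3.96 (SE 0.66) and passed without TNF replicate 1.

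Defb1 (ENSMUSG00000044748, chromosome 8, 22266584 to 22285201, plus strand), the beta-defensin that many epithelia make constitutively, was the member for which all TNF libraries stood well above all PBS libraries. It had 2.02, 3.34 and 6.32 CPM in PBS, and 27.5, 14.3 and 27.6 CPM after TNF. Here TNF replicate 1 was as high as replicate 3 and TNF replicate 2 was the lowest of the 3. Means were 3.89 ± 2.20 CPM in PBS and 23.1 ± 7.68 CPM in TNF (SD, n = 3), and the log2 fold change was 2.57 (SE 0.44) with all libraries and 2.44 (SE 0.43) without TNF replicate 1. Of its chromosomal neighbours, Defb2 and Defb50 had 0 counts in all 6 libraries, whereas the alpha-defensin gene Defa24 had 1531716 to 2478042. Defa24 lies 41094 bases from Defb1 on the same strand.

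Of the WAP domain genes, Wfdc18 (ENSMUSG00000000983, chromosome 11, 83599841 to 83602174, plus strand) had 2, 3 and 10 counts in PBS and 22, 986 and 1036 counts in TNF. Its levels were 0.144, 0.200 and 0.735 CPM in PBS, and 1.87, 48.2 and 83.4 CPM after TNF. All TNF libraries were above all PBS libraries, but TNF replicate 1 lay far nearer to PBS than to TNF replicates 2 and 3. The log2 fold change was 6.94 (SE 1.27) with all libraries and 7.52 (SE 0.44) without TNF replicate 1.

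Wfdc17, which lies 2746 bases from Wfdc18 on the same strand and was 79.4% identical to it in coding sequence, had 2, 0 and 0 counts in PBS and 0, 155 and 167 counts in TNF. The transcripts of Wfdc17 and Wfdc18 shared 0 words of 50 bases. Wfdc21, further along the same strand, had 0 counts in all 6 libraries. Slpi (ENSMUSG00000017002, chromosome 2, 164195990 to 164231015, minus strand), the secretory leukocyte protease inhibitor, had 0, 1 and 0 counts in PBS and 0, 3 and 2 counts in TNF. Its ratio of 4.76 had a 95% interval of 0.532 to 225, and no difference was detectable at this depth.

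Pglyrp1 (ENSMUSG00000030413, chromosome 7, 18605256 to 18624384, plus strand) was the highest member in every library, also per transcript length, with 421, 240 and 244 CPM in PBS, and 318, 563 and 518 CPM after TNF. TNF replicates 2 and 3 were above all PBS libraries, and TNF replicate 1 lay within their range. Means were 302 ± 103 CPM in PBS and 466 ± 130 CPM in TNF (SD, n = 3). The log2 fold change of 0.63 (SE 0.33) did not pass 5%, nor did the 0.86 (SE 0.28) found without TNF replicate 1, whereas without both that library and the low-count filter 0.85 (SE 0.27) passed, beside 6.36% of genes that passed and were higher. Ccdc61, which overlaps the end of Pglyrp1 on the opposite strand, had 19 to 102 counts, against 3316 to 11505 for Pglyrp1.

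Retnlb (ENSMUSG00000022650, chromosome 16, 48637219 to 48639255, plus strand) had 51.5, 25.6 and 61.6 CPM in PBS, and 28.1, 34.4 and 42.9 CPM after TNF. All TNF values lay within the PBS range. The log2 fold change was -0.39 (SE 0.32), and -0.24 (SE 0.31) without TNF replicate 1, and neither passed 5%. Retnla, 23640 bases away, had 1 count in 1 PBS library and 0 in the others.

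The members' order was compared per kb of the canonical transcript. In PBS, Pglyrp1 was at 346 to 607 CPM per kb, Retnlb at 36.7 to 88.6 and Defb1 at 2.24 to 7.0, and these 3 ranges did not overlap. The other 7 members had PBS means of 0.0254 to 0.794 CPM per kb, and their order could not be told from the spread. In TNF replicate 2 the order was Pglyrp1 (811 CPM per kb), Wfdc18 (92.6), Lcn2 (79.2), Lrg1 (64.5), Retnlb (49.5), Defb1 (15.8) and Saa3 (14.2). TNF replicate 3 gave Pglyrp1 (746 CPM per kb), Wfdc18 (160), Lcn2 (97.3), Retnlb (61.7), Lrg1 (40.6), Defb1 (30.6) and Saa3 (15.5), so that Lrg1 and Retnlb changed places. In TNF replicate 1, Retnlb (40.4 CPM per kb) and Defb1 (30.5) followed Pglyrp1 (458), and Wfdc18 was at 3.59. Pglyrp1 made up 77.8% to 89.0% of the summed CPM of the 10 members, not taken per length, in PBS, 84.5% in TNF replicate 1, and 65.2% and 60.8% in TNF replicates 2 and 3.

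**Figure D2:**
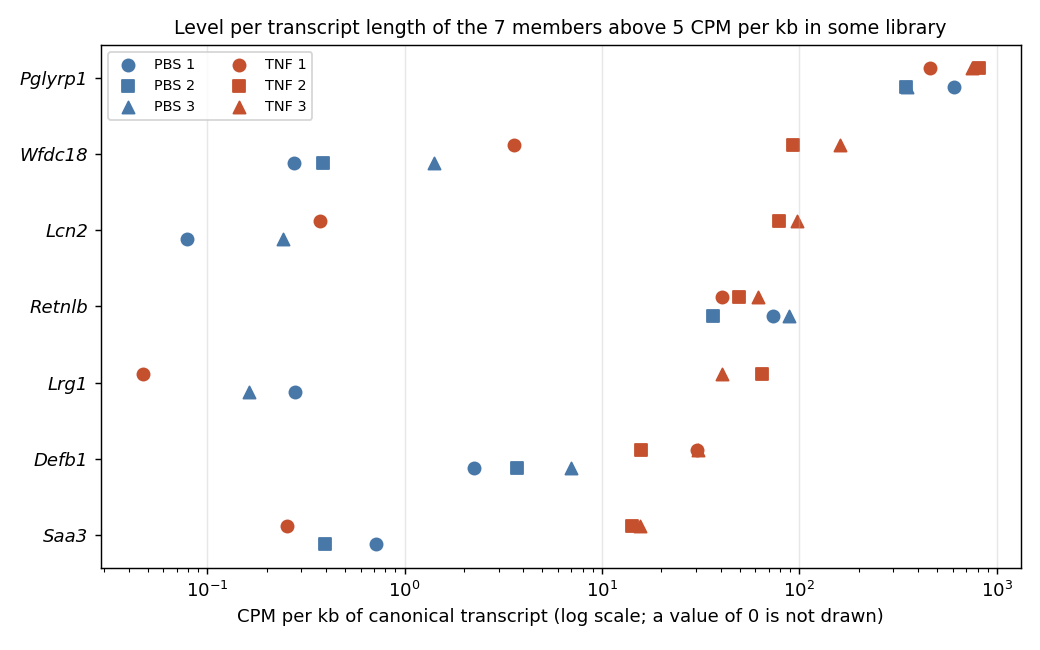
CPM per kb of canonical transcript (log axis) for the 7 members above 5 CPM per kb in some library, with 1 point per library, circles for replicate 1, squares for replicate 2 and triangles for replicate 3, PBS in blue and TNF in red. Values of 0 are not drawn. Wfdc18, Lcn2, Lrg1 and Saa3 lie at 14.2 to 160 CPM per kb in TNF replicates 2 and 3, and at 3.59 or less in TNF replicate 1.

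The test of TNF against PBS was the edgeR quasi-likelihood test over all genes, with a Benjamini-Hochberg adjusted p under 0.05 termed 5%. Its low-count filter asks for enough counts in 3 libraries, and it kept 4 of the 10 members: Defb1, Wfdc18, Pglyrp1 and Retnlb. With all 6 libraries, 0 of these 4 passed, as did 0 of 13026 genes tested (0%), of which 1596 (12.3%) had an unadjusted p under 0.05. With DESeq2, 2 members (Defb1 and Wfdc18) passed, beside 1.75% of genes with an adjusted p that passed and were higher. Without TNF replicate 1, 8 members were tested and 5 passed and were higher in TNF, namely Lcn2, Lrg1, Saa3, Defb1 and Wfdc18, beside 9.1% of the 13660 genes tested that passed and were higher (14.5% in either direction). With TNF replicate 1 left out, the filter asks for enough counts in 2 libraries, so Lcn2, Lrg1 and Saa3 entered that fit through TNF replicates 2 and 3, where they were high, and their calls there follow from this. Wfdc18 had 2, 3 and 10 counts in PBS, so it too met the filter only with TNF libraries where it was high. Its calls, with DESeq2 and without TNF replicate 1, carry the same limit. Nothing is read from these numbers of passing members, since the members were chosen on this contrast.

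For the members that the filter left out, log2 fold changes came from the fit with no filter. They were 9.0 (SE 0.51) for Lcn2, 7.85 (SE 0.46) for Lrg1 and 4.68 (SE 0.59) for Saa3, and these 3, with Defb1 and Wfdc18, passed 5% there, beside 2.1% of 23434 genes that passed and were higher. Leaving out the filter itself lowered the edgeR SE, which for Wfdc18 with all libraries was 1.27 with the filter and 0.43 without it. The SEs of the unfiltered edgeR fit are therefore not comparable with those of the filtered fit. The other tools gave larger SEs without the filter. DESeq2 gave 9.10 (SE 1.98) for Lcn2 and 7.87 (SE 2.18) for Lrg1, which passed, and 4.73 (SE 1.77) for Saa3, which did not, beside 1.46% of genes that passed and were higher. With limma-voom the values were 7.33 (SE 3.78) for Lcn2, 6.21 (SE 4.83) for Lrg1 and 4.40 (SE 2.29) for Saa3, none of which passed, beside 0% of genes. Without TNF replicate 1 and with the filter, the values were 9.64 (SE 0.42), 8.48 (SE 0.48) and 5.30 (SE 0.63). Fitted values were -0.12 (SE 1.23) for Saa1, 1.55 (SE 2.10) for Saa2 and 1.82 (SE 2.29) for Slpi, and none of these 3 passed. Without TNF replicate 1 and without the filter they were 0.48 (SE 1.18), 2.15 (SE 2.29) and 2.38 (SE 2.66), and again none passed. In bulk RNA of this kind, a change in the share of cells of a type and a change of RNA per cell cannot be told apart.

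Other genes of the same pathways were examined as lists. Because leaving out TNF replicate 1 lets genes into the test through the TNF libraries where they are high, counts without it are also given over the genes tested in both fits, of which 8.91% of 13026 passed and were higher and 5.6% passed and were lower. Of those 13026 genes, 6508 had a positive log2 fold change with all libraries. Of 29 other acute-phase genes, 7 were tested and 0 passed 5% with all libraries, with a median log2 fold change of 1.35 beside 0.00 over all genes tested. Ftl1, the ferritin light chain that stores iron, had 94.1, 67.7 and 93.0 CPM in PBS, and 104, 281 and 265 CPM after TNF, a log2 fold change of 1.35 (SE 0.37), and of 1.70 (SE 0.22) without TNF replicate 1. Without TNF replicate 1, 10 were tested, of which 4 passed and were higher (C3, Lbp, Fga and Ftl1) and 1 passed and was lower (Tfrc, the receptor for iron-loaded transferrin), beside 9.1% and 5.4% of all genes tested, and the median was 1.84. Of the 7 tested in both fits, 3 were higher and 1 lower, since Lbp entered only without that library, through its 334 and 155 counts in TNF replicates 2 and 3. Lbp, the lipopolysaccharide-binding protein, had 0.505, 0 and 0.661 CPM in PBS, and 0.170, 16.3 and 12.5 CPM after TNF. The complement gene Cfb (log2 fold change 0.19, SE 0.43, and -0.34, SE 0.38, without TNF replicate 1) and the ferritin heavy chain gene Fth1 (0.27, SE 0.30, and 0.26, SE 0.29) passed in neither fit.

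Of 31 other inducible antimicrobial genes, 16 were tested and 0 passed with all libraries, 8 having a positive log2 fold change, with a median of 0.34. Without TNF replicate 1, 20 were tested, 10 passed and were higher and 3 passed and were lower, beside 9.1% and 5.4% of all genes, and the median was 1.17. Of the 16 tested in both fits, 6 were higher and 3 lower, with a median of 0.33, so the higher median came with the 4 genes that entered (Reg3a, S100a9, Sprr1a and Cxcl9). The C-type lectin genes Reg3b and Reg3g had log2 fold changes of 4.31 (SE 0.99) and 3.14 (SE 0.80) with all libraries, and 4.89 (SE 0.36) and 3.68 (SE 0.33) without TNF replicate 1. The oxidase Duox2, its maturation factor Duoxa2 and the nitric oxide synthase Nos2 had 3.44 (SE 0.78), 4.74 (SE 1.11) and 3.29 (SE 0.90) with all libraries, and 4.0 (SE 0.25), 5.33 (SE 0.27) and 3.85 (SE 0.43) without that library, where all 3 passed. The 3 lower genes were Reg4, the mucus protein gene Zg16 and the mucosal chemokine gene Ccl28. Their log2 fold changes were -1.49 (SE 0.29), -2.84 (SE 0.31) and -1.27 (SE 0.20) without TNF replicate 1. With all libraries they were -0.45 (SE 0.56), -1.17 (SE 0.71) and -0.90 (SE 0.28), and none passed. Reg4 had 2688.8, 1940.1 and 2728.6 CPM in PBS, and 3668.5, 849.39 and 877.36 CPM after TNF, so TNF replicate 1 was its highest library.

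Most of the other listed genes from the members' own families had no counts, but Wfdc17 had 155 and 167 in TNF replicates 2 and 3. Of 27 further beta-defensins, WAP proteins, peptidoglycan recognition proteins and resistin-like genes, 26 were matched to the table and 19 of these had 0 counts in all 6 libraries. With all libraries 1 was tested and 0 passed, and the same gene was tested and did not pass without TNF replicate 1. Wfdc17 entered that fit through TNF replicates 2 and 3 alone, where it is high, so its fitted value of 7.58 (SE 0.76) and its call there add nothing to the counts given above.

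Of 20 receptors and partners of the products, 8 were tested with all libraries and 0 passed 5%. All 8 had a positive log2 fold change, beside 6508 of all 13026, with a median of 0.82, and of 1.2 for the same genes without TNF replicate 1. Tgfbr2, a subunit of the TGF-beta receptor, had 13.6, 8.21 and 9.26 CPM in PBS, and 5.27, 97.0 and 83.3 CPM after TNF, so that TNF replicate 1 was the lowest library, and its log2 fold change was 2.58 (SE 0.79), and 3.14 (SE 0.24) without that library. When that library was left out, 4 of 9 tested passed and were higher, beside 9.1% of all genes: Tgfbr2, the pattern recognition receptors Tlr2 and Tlr4, and the lipoprotein receptor Scarb1. Tlr2 and Tlr4 were low, with means of 3.95 and 1.51 CPM over the 6 libraries. Tlr4 was close to the threshold, with an adjusted p of 0.0497 in that edgeR test. Tgfbr1, Plscr1 and Cap1, with log2 fold changes of 0.44 (SE 0.24), 0.48 (SE 0.36) and 0.27 (SE 0.30) with all libraries, and 0.62 (SE 0.21), 0.81 (SE 0.25) and 0.54 (SE 0.23) without TNF replicate 1, passed in neither fit.

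Of 30 genes of the inducing signals, 28 were tested and 0 passed with all libraries, and 20 of them had a positive log2 fold change, beside 6508 of all 13026, with a median of 0.43. Leaving out TNF replicate 1, 29 were tested, 12 passed and were higher and 2, Nfkbiz and Bcl3, passed and were lower, beside 9.1% and 5.4% of all genes. Of the 28 tested in both fits, 11 were higher and 2 lower, with a median of 0.65. The interferon-gamma receptor subunit Ifngr2, the NF-kappaB subunit Relb and the NF-kappaB inhibitor Tnfaip3 had log2 fold changes of 2.00 (SE 0.47), 1.74 (SE 0.42) and 1.45 (SE 0.41) with all libraries, and 2.44 (SE 0.21), 2.14 (SE 0.22) and 1.84 (SE 0.22) without TNF replicate 1. Nfkbiz and Bcl3 encode nuclear IkappaB proteins known as cofactors at Lcn2 and other secondary targets of NF-kappaB. Bcl3 was low in all TNF libraries, at 18.2, 11.3 and 14.5 CPM in PBS, and 4.42, 2.74 and 4.67 CPM after TNF, with a log2 fold change of -1.90 (SE 0.33), and of -1.98 (SE 0.34) without TNF replicate 1. Nfkbiz was at 28.7, 38.0 and 30.6 CPM in PBS, and 26.1, 9.34 and 11.6 CPM after TNF, with log2 fold changes of -1.06 (SE 0.37) and, without TNF replicate 1, -1.62 (SE 0.23). Socs3, the feedback inhibitor of STAT3, was at 34.2, 24.6 and 22.5 CPM in PBS, and 7.56, 5.09 and 20.5 CPM after TNF, and passed in neither fit (-1.30, SE 0.46, and -1.09, SE 0.45, without TNF replicate 1). Osmr, the oncostatin M receptor, had 0.577, 0.200 and 0.147 CPM in PBS, and 0.0850, 24.0 and 19.5 CPM after TNF.

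**Figure D3:**
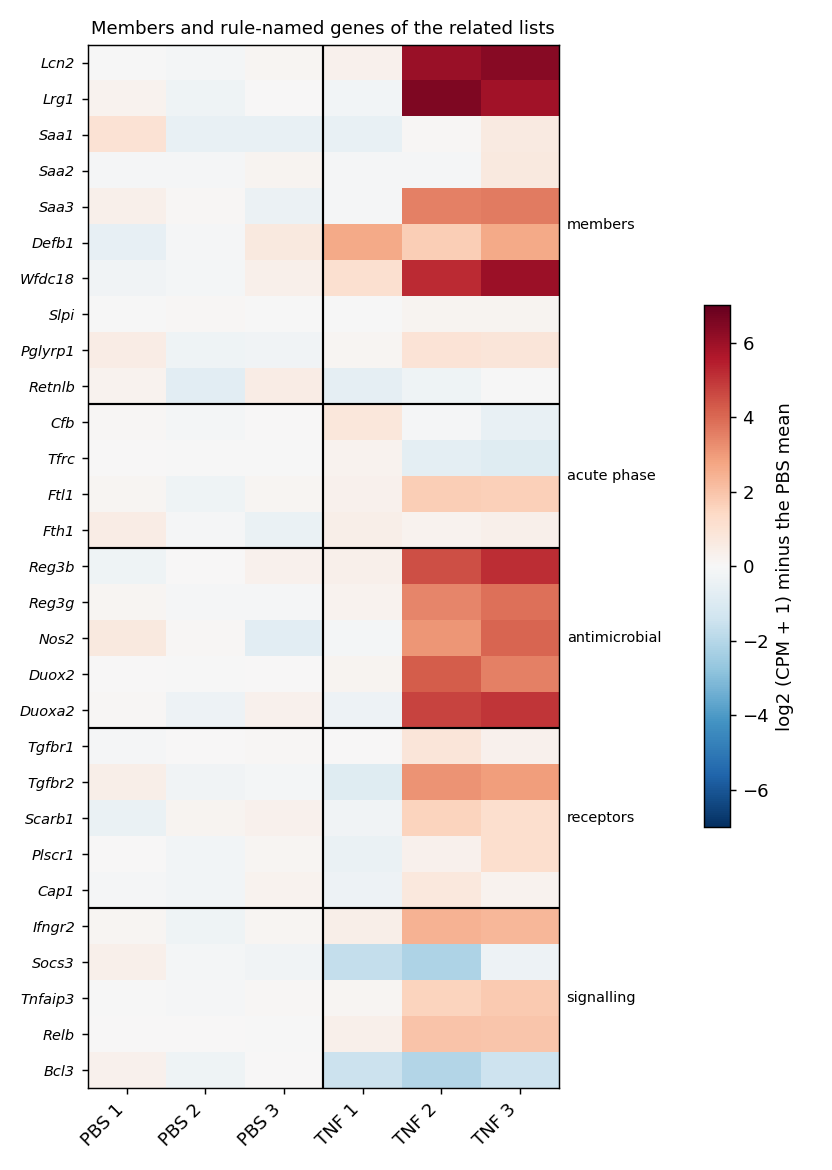
Difference of log2 (CPM + 1) from the mean of the PBS libraries for the 10 members and for the genes of 4 related lists that the naming rule selected, with 1 column per library, red for higher and blue for lower. Colour is strong in TNF replicates 2 and 3 for Lcn2, Lrg1, Wfdc18, Reg3b and Duoxa2, while in TNF replicate 1 Defb1 is the strongest red and Socs3 and Bcl3 are blue.

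For each member with a mean of at least 10 CPM, the 3 genes with the most similar profile over the 6 libraries were found among 9173 genes, by the root mean square (RMS) difference of centred log2 (CPM + 1). Lcn2 and Lrg1 were each other's closest gene (0.37), and the aldo-keto reductase gene Akr1b8 was the second for both (0.42 for Lcn2 and 0.55 for Lrg1). The third was Wfdc18 for Lcn2 (0.52) and Duoxa2 for Lrg1 (0.69). Wfdc18 was closest to Reg3b (0.39), Cxcl16 (0.44) and Tnfrsf11b (0.44). Defb1 was closest to the cathepsin gene Ctsh (0.60), the cold-inducible gene Rbm3 (0.65) and Smim26 (0.67). Pglyrp1 was closest to Atoh1 (0.05), the transcription factor of the secretory lineage, and then to Fbp1 (0.08) and Mfsd5 (0.08), while Retnlb was closest to Bend3 (0.15), Trp53i11 (0.21) and Xk (0.23). Flat profiles give small RMS values, so that these values rank genes within a member and not between members.

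Several members are also made by other cells, so marker lists were summed in each library. Of 13 neutrophil markers, 7 (Csf3r, Cxcr2, Mpo, Elane, Ngp, Camp and Retnlg) had 0 counts in all libraries, and the summed level was 3.97 to 35.0 CPM in PBS and 10.7 to 26.7 CPM in TNF. Without Ptprc, the pan-leukocyte gene, it was 0.0721, 2.27 and 1.18 CPM in PBS, and 0.850, 3.91 and 1.85 CPM after TNF. The neutrophil genes S100a9 (0 counts in PBS, and 0, 26 and 13 in TNF) and S100a8 (0 in PBS, and 0, 2 and 4 in TNF) were detected in TNF replicates 2 and 3, and Ly6g in TNF replicate 2 alone (27 counts). Of 10 macrophage markers, C1qc was at 0, and the sums were 27.2 to 61.6 CPM in PBS and 48.0 to 49.5 CPM in TNF. Without Ptprc the macrophage sums were 23.3, 19.0 and 27.7 CPM in PBS, and 33.5, 25.3 and 40.7 CPM after TNF. TNF replicates 1 and 3 were thus above all PBS libraries, and TNF replicate 2 lay within their range.

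Hepatocyte markers (6 genes, none at 0 in all libraries) summed to 3.60 to 4.40 CPM in PBS and 6.36 to 8.75 CPM in TNF, with TNF replicate 1 the highest. Fga, Fgb and Serpina1a among them are also on the acute-phase list. Fga alone had 0.505, 0.667 and 0.514 CPM in PBS, and 0.595, 3.91 and 2.17 CPM after TNF. The sum therefore does not separate hepatocyte RNA from acute-phase genes. Goblet markers (8 genes, none at 0) summed to 4929 to 5250 CPM in PBS and 4056 to 4977 CPM in TNF, enterocyte markers (11 genes, none at 0) to 593 to 682 CPM and 311 to 447 CPM, and tuft cell markers (6 genes, none at 0) to 444 to 1583 CPM and 539 to 1079 CPM. The part of other cell types in the members' levels was not tested. The summed level of the members other than Pglyrp1 and Retnlb was 5.27, 4.0 and 7.79 CPM in PBS, and 30.1, 266 and 291 CPM after TNF.

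**Figure D4:**
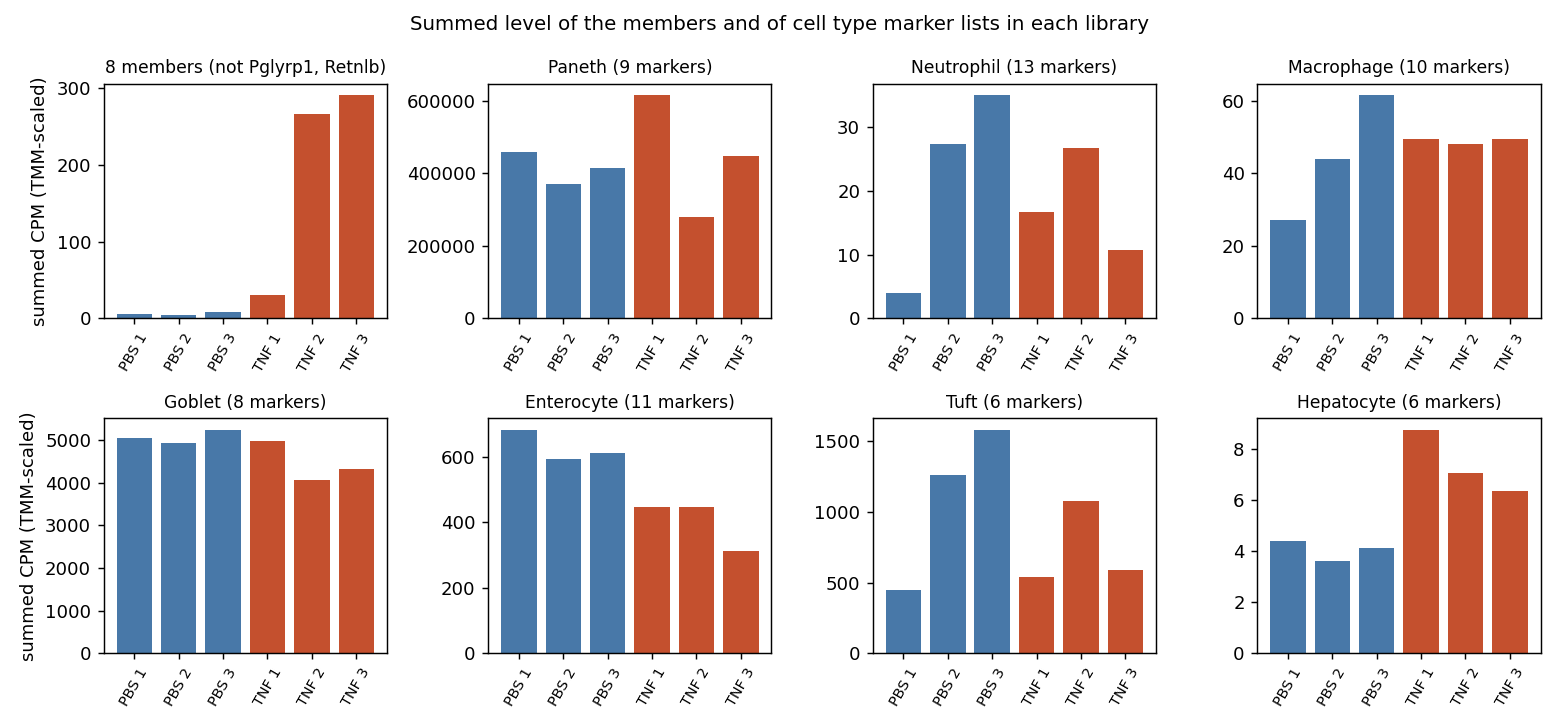
Summed CPM in each library of the members other than Pglyrp1 and Retnlb and of 7 marker lists, as bars from 0 on a linear axis of its own per panel, PBS in blue and TNF in red. The members reach 266 and 291 CPM in TNF replicates 2 and 3. Neutrophil and macrophage sums overlap between the groups, but the neutrophil sum is mostly Ptprc in every library. The neutrophil genes S100a8 and S100a9 have counts in TNF replicates 2 and 3 alone, and Ly6g in TNF replicate 2 alone. Enterocyte sums are lower and hepatocyte sums higher in all TNF libraries, and the hepatocyte markers include Fga, Fgb and Serpina1a of the acute-phase list.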

How the data were processed

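The deposited data were raw counts per Ensembl gene in 6 libraries, which the authors made from single-end Element AVITI reads. Per the labels, the processing notes name the mouse build mm39, FastQC, Trimmomatic 0.39, STAR 2.7.10a and DESeq2. How reads were counted, on which annotation release, with or without strand and with which treatment of multiple matches is not given in the sources used here. Groups came from the sample labels, which give no sex, litter or batch. Symbols, positions and transcripts came from GENCODE vM39 on GRCm39, and 54749 of 55414 identifiers matched (0.0193% of counts did not).

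Counts were tested in R 4.3.3 with edgeR 4.0.16 (two-sided quasi-likelihood test, TMM, filterByExpr with minimum count 10 and minimum total 15, Benjamini-Hochberg over all genes). Each SE was obtained as the log2 fold change over the square root of its F statistic. CPM values use TMM-scaled sizes. Promoters and coding sequences were read with pysam 0.24.0 and aligned with Biopython 1.88.

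The members and lists were chosen with earlier results of these data known. Named genes are the members, up to 5 tested genes per list with a mean of at least 5 CPM and the largest absolute log2 fold change, called genes where 5 or fewer, and the 3 most similar genes. Chosen after their values were seen were Wfdc17 and Osmr, Nfkbiz beyond its call, and the lower genes of the antimicrobial list. The alternatives tried were scaling by relative log expression (RLE) or by library size alone, no filter, DESeq2 1.42.0, limma-voom (limma 3.58.1) with and without sample weights, a replicate block and leaving out each library. Fits without the filter combined with each alternative for the members it drops, sums without Ptprc, counts over the genes tested in both fits, and the fit without both the filter and TNF replicate 1 for the other members, were added after seeing the data. Of the listed genes, Pi3 was not matched.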

Additional observations from a re-analysis of the deposited data

How the results depend on the processing

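With all 6 libraries and the filter, 0 genes passed 5% by edgeR. The count was 690 of 23434 with no filter, 242 of 11741 with DESeq2, and 1501 of 13026 with limma-voom and sample weights. It was 0 to 1980 when each library was left out in turn, the 1980 without TNF replicate 1 being 14.5% of 13660. The members past 5% numbered 5 of 10, 2 of 4 and 2 of 4 tested under those 3 alternatives, and 0 to 5 when a library was left out. The acute-phase list gave 3, 2 and 3 (0 to 5), the antimicrobial list 9, 4 and 11 (0 to 13), and the inducing signals 9, 5 and 12 (0 to 14). The beta-defensin and WAP list gave 1 with no filter (0 to 1), and the receptors 1 with no filter and 2 with sample weights (0 to 4). The summed Saa feature passed with no filter (log2 fold change 3.34) and ranged from 2.85 to 5.09 when a library was left out. The summed goblet marker level was lower in TNF by a mean difference of -627 CPM, and of -1041 CPM with library size alone. The direction of Saa1 was reversed with limma-voom (1.25), limma-voom with sample weights (2.82) and a replicate block (2.36), all without the filter, and its range when a library was left out was -1.16 to 6.07, with 6.07 without PBS replicate 1 and 0.48 without TNF replicate 1. That of Saa2 was reversed without TNF replicate 3 (-3.27). The cause was not tested. The other 8 members kept their direction under every alternative run: Lcn2 ranged from 7.33 to 10.25, Lrg1 from 6.21 to 8.74, Saa3 from 4.05 to 5.85, Defb1 from 2.26 to 3.06, Wfdc18 from 6.07 to 7.89, Slpi from 1.09 to 3.70, Pglyrp1 from 0.44 to 0.95 and Retnlb from -0.69 to -0.18. Pglyrp1 passed 5% with sample weights (0.94), where 1501 of 13026 genes passed.

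The labels number replicates 1 to 3 in both groups but do not say that a number marks a shared mouse, litter or day, and deviations of same-numbered libraries correlated at -0.0128, -0.0748 and 0.0311. With the replicate number as a block, 0 genes and 0 members passed 5%. Depth limits Saa1, Saa2 and Slpi, which had few counts in every library.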
